A study of Mus musculus with 8 samples.

Results

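Mature mmu-miR-494-3p, mmu-miR-3072-5p and mmu-miR-1906 (hereafter without the species prefix) were measured in mouse skin, as 3 of the 1881 miRNAs on the array. They were selected on being miRNAs of the imprinted Dlk1-Dio3 locus with measurable signal in this tissue (each was detected on every normal array), and with the difference between the groups already known. Their group differences are therefore given as a description, without a p-value. The skin came from male mice with floxed Ncstn alleles (flx/flx) and 1 copy of Krt14-CreER, a transgene in which a keratin promoter active in basal keratinocytes drives a Cre recombinase that needs tamoxifen to act. The product of Ncstn, nicastrin, is part of γ-secretase, the protease complex that releases the active portion of Notch receptors. In the group labelled NcstnΔKC (n = 4), tamoxifen was given by oral gavage at 20 mg/kg/day, starting at 8 weeks of age, on 5 days running and then every 10 days. The normal group (n = 4) carried the same alleles and was given corn oil, so tamoxifen and the deletion differ together between the groups and cannot be told apart. Skin of both groups was taken at 16 weeks. Only cells in which the keratin promoter was active could recombine, while whole skin was measured, and the array has no probe for Ncstn mRNA with which to check the deletion. Separate mice for each sample are not stated in the labels, and the spread within a group may then be partly technical.

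The Dlk1-Dio3 locus is an imprinted region, in which the parent of origin decides which copy of a gene is transcribed. The protein-coding genes Dlk1, Rtl1 and Dio3 are transcribed from the paternal chromosome, and the non-coding RNAs Meg3, Rian and Mirg, with the many miRNAs that lie in and between them, from the maternal one. Most of these miRNAs are known as abundant in the embryo, placenta and brain and as scarce in many adult tissues. A miRNA recognises its target messengers mainly through its seed, bases 2 to 8 from the 5′ end.

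The mature sequences show how the 3 miRNAs differ in seed and composition. They are given 5′ to 3′ from RefSeq (GRCm38.p6), with the seed in capitals.
miR-494-3p: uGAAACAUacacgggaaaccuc
miR-3072-5p: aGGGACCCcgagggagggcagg
miR-1906: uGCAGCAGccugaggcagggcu
No seed was shared among the 3, and 0 other mature mouse miRNAs in the RefSeq table had any of these seeds. The GC content was 45.5% for miR-494-3p, 77.3% for miR-3072-5p and 68.2% for miR-1906.

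The 3 miRNAs come from different places in the locus. Mature miR-494-3p lies at chr12:109715367-109715388 on the plus strand, 174.32 kb from the start of Meg3 to the start of its hairpin gene, in the interval between the annotated spans of Rian and Mirg and inside no other annotated gene. Mature miR-3072-5p lies at chr12:109747893-109747914 on the plus strand, inside the span of the long non-coding RNA Mirg. Mature miR-1906 lies at chr12:109544588-109544609 on the plus strand, inside the span of the long non-coding RNA Meg3. The same miR-1906 sequence is also annotated at chrX:88759485-88759506 on the minus strand, outside the imprinted locus and inside no other annotated gene. Signal from these copies cannot be told apart by hybridisation, so the share of miR-1906 signal that comes from the locus is not known.

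Each miRNA was read by 2 probes that differ by 1 base in length and pair with its 3′ portion. Below, the bases of each mature miRNA paired by the longer probe are in capitals.
miR-494-3p: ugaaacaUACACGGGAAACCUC
miR-3072-5p: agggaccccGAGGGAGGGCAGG
miR-1906: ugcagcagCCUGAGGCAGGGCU
The 15-base probe of miR-494-3p reached into the seed by 1 base, and the other 5 probes paired with 0 seed bases. The complement of each probe matched in full only 1 mature miRNA of the RefSeq table, the one it is named for.

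Signal is given as an array's summed probe intensity of a miRNA divided by that array's 75th percentile over 301 probes detected on all 8 arrays, as log2 unless called linear. A miRNA counted as detected where at least 50% of the spots of at least 1 of its probes were well above background. The arrays detected 235 to 273 miRNAs in normal and 198 to 238 in NcstnΔKC skin. All 7 keratinocyte miRNAs of a marker list (the miR-200 family, miR-203-3p and miR-205-5p) were detected on all 8 arrays, as skin should show. All arrays were on 1 slide, normal samples in one row and NcstnΔKC samples in the other, so position on the slide and group cannot be told apart.

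miR-494-3p was several-fold lower in NcstnΔKC skin. Its log2 signal was 3.21, 2.98, 3.83 and 4.17 on normal arrays 1 to 4. On NcstnΔKC arrays 1 to 4 it was 1.88, 1.30, 1.49 and 1.35. Every NcstnΔKC value lay below every normal value, with 1.09 between the lowest normal array (normal 2) and the highest NcstnΔKC array (NcstnΔKC 1). The means were 3.54 ± 0.55 (SD, n = 4) in normal and 1.51 ± 0.26 (SD, n = 4) in NcstnΔKC skin. The difference of -2.04 ± 0.28 (SE from limma) corresponds to a 4.11-fold lower signal and was among the largest decreases of the 222 miRNAs tested. That of miR-1897-3p, which was not detected in NcstnΔKC skin, was -2.01 ± 0.31 (SE) and did not differ from it beyond these errors. The median tested miRNA also lay lower in NcstnΔKC skin, by -0.23, and relative to it miR-494-3p stood at -1.80. The normal arrays differed among themselves by 2.28-fold and the NcstnΔKC arrays by 1.49-fold.

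miR-3072-5p showed a smaller difference. Its log2 signal on normal arrays 1 to 4 was -2.44, -1.90, -2.79 and -2.60. On NcstnΔKC arrays 1 to 4 it was -3.31, -3.07, -3.29 and -2.83. The groups were separated by 0.045 only, between normal 3 and NcstnΔKC 4. The means were -2.43 ± 0.38 (SD, n = 4) and -3.13 ± 0.22 (SD, n = 4), a difference of -0.69 ± 0.22 (SE), or 1.62-fold lower. Relative to the median tested miRNA the difference was -0.46, and it ranked 60 of 222 tested miRNAs by size of decrease.

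miR-1906 differed least. Its log2 signal on normal arrays 1 to 4 was -3.32, -3.0, -3.25 and -3.10. On NcstnΔKC arrays 1 to 4 it was -3.36, -3.78, -3.80 and -3.49. It was detected on all 4 normal arrays but only on NcstnΔKC 1 and 4, so the values of NcstnΔKC 2 and 3 are those of probes not well above background. The groups were separated by 0.043, between normal 1 and NcstnΔKC 1. The means were -3.16 ± 0.14 (SD, n = 4) and -3.61 ± 0.22 (SD, n = 4), a difference of -0.44 ± 0.16 (SE), or 1.36-fold lower. Relative to the median tested miRNA this was -0.21.

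**Figure D1:**
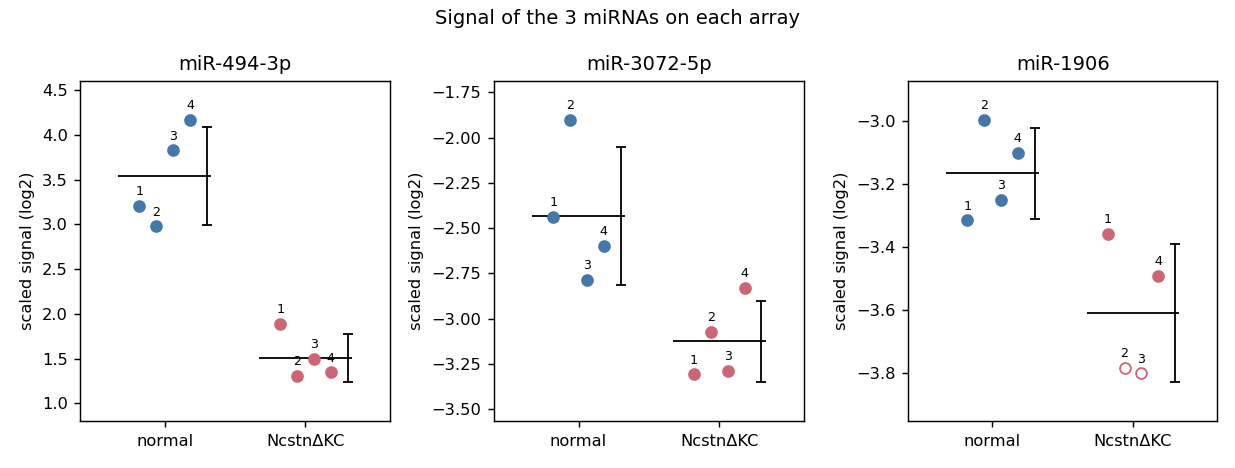
Scaled log2 signal of miR-494-3p, miR-3072-5p and miR-1906 on each of the 4 normal and 4 NcstnΔKC arrays, with each group's mean (line) and SD (bar); open symbols mark arrays on which the miRNA was not detected. The groups lie 1.09 apart for miR-494-3p and 0.045 and 0.043 apart for miR-3072-5p and miR-1906.

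All 3 miRNAs had every NcstnΔKC value below every normal value, as did 23.4% of the tested miRNAs. Tested miRNAs with every NcstnΔKC value above every normal value are not in that share. All 3 were called lower at an adjusted p of 0.05 in the limma fit across tested miRNAs, as were 27.9% of them (14.9% were called higher). Since the contrast was known when the 3 were chosen, nothing is read from these counts. In a fit over all 1881 miRNAs, 0.585% were called lower. The call of miR-494-3p was kept there, only just under the threshold, and those of miR-3072-5p and miR-1906 were lost. Only 317 of the 1881 were detected on at least 1 array. Those at the floor on every array could not be called, which lowers the share. Leaving out 1 array ended the call of miR-3072-5p in 6 of 8 cases (each of NcstnΔKC 1, 2 and 3 and normal 1, 2 and 4), with a difference between -0.81 and -0.52. The call of miR-1906 ended in 7 of 8 cases, every one but that without NcstnΔKC 1, with a difference between -0.53 and -0.38.

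The single probes show what these sums rest on. For the 14-base probe of miR-494-3p the processed intensity before scaling was 7936, 6452, 11869 and 16018 on normal arrays 1 to 4. On NcstnΔKC arrays 1 to 4 it was 2910, 1567, 2054 and 1882. After scaling this probe was 4.04-fold lower in NcstnΔKC skin and the 15-base probe 4.24-fold lower. The lowest intensity of any detected probe on an array was 43.7 to 51.0, so both probes were far above background in both groups, and both gave nearly the same difference, -2.02 ± 0.28 and -2.09 ± 0.27 (SE). The 2 probes pair with the same bases but for 1, so they are not independent readings. The replicate spots of a probe within an array varied by a median of 3.63% and 3.22% (coefficient of variation).

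The probes of miR-3072-5p lay near the detection limit. The 12-base probe read 89.3, 122, 72.0 and 95.2 on normal arrays 1 to 4. It read 38.0, 33.5, 30.6 and 45.7 on NcstnΔKC arrays 1 to 4, of which only NcstnΔKC 4 counted as detected. The 13-base probe read 146, 202, 107 and 122 in normal and 79.2, 76.0, 78.0 and 104.7 in NcstnΔKC skin, and was detected on all 8 arrays. The 13-base probe gave a difference of -0.48 ± 0.23 (SE, 1.39-fold lower), with overlapping groups after scaling. The 12-base probe had non-overlapping groups, and since 3 of its 4 NcstnΔKC values were not well above background, no fold is given for it. Replicate spots varied by a median of 12.1% for the 12-base and 7.82% for the 13-base probe.

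The 2 probes of miR-1906 differed in what they showed. The 14-base probe read 82.6, 84.5, 92.6 and 114 on normal arrays 1 to 4. On NcstnΔKC arrays 1 to 4 it read 72.3, 36.9, 46.6 and 52.0, with non-overlapping groups after scaling and a difference of -0.61 ± 0.17 (SE). This probe was not detected on NcstnΔKC 2 and 3, and 1 NcstnΔKC value was set to the floor. The size of its difference therefore rests partly on values not well above background. The 13-base probe read 45.5, 67.8, 36.9 and 39.6 in normal and 40.8, 30.1, 29.5 and 43.2 in NcstnΔKC skin. It was detected on normal 2 alone, was not tested, and its groups overlapped with a difference of -0.11. In that difference 3 normal and all 4 NcstnΔKC values were set to the floor. The highest miR-1906 value among normal arrays, on normal 2, came from this probe, since the 14-base probe was highest on normal 4. Replicate spots varied by a median of 21.1% for the 13-base and 12.8% for the 14-base probe.

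**Figure D2:**
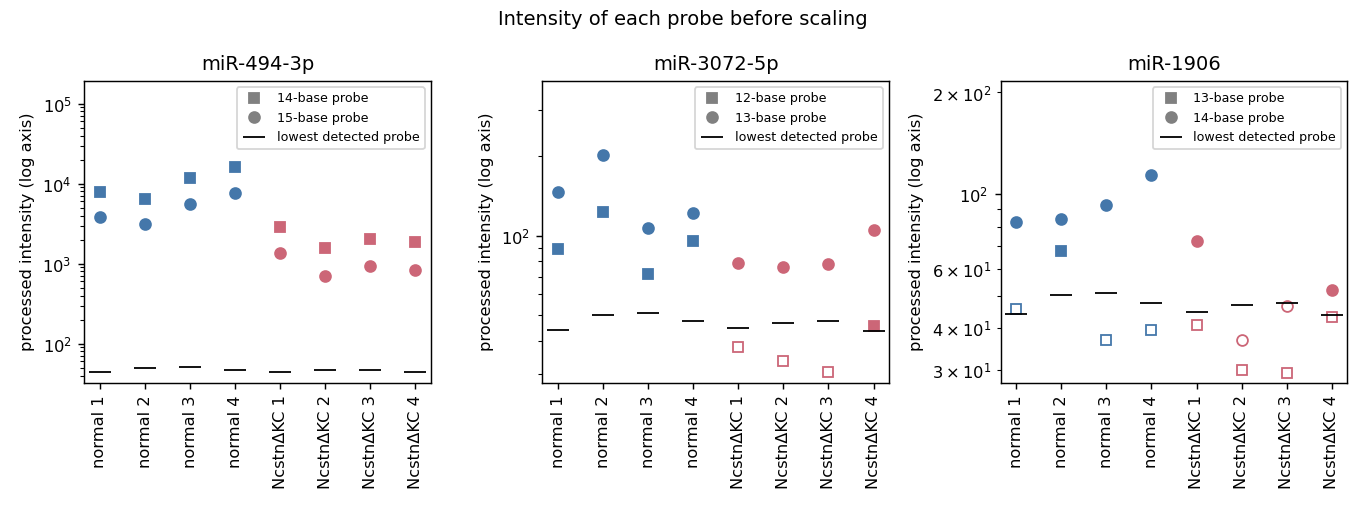
Processed intensity (log axis, before scaling) of the 2 probes of each miRNA on each array, filled where detected and open where not; black ticks give the lowest intensity of a detected probe on that array. Both miR-494-3p probes lie far above the ticks in both groups, while probes of miR-3072-5p and miR-1906 reach them in NcstnΔKC skin. The 13-base probe of miR-1906 also lies below them on normal 3 and 4.

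Of the 5 probes of these miRNAs that entered the probe-level fit, 4 had every NcstnΔKC value below every normal value, beside 22.8% of the 395 probes tested, and again nothing is read from the count. The other arms of the hairpins gave no signal. Both miR-494-5p, the passenger of miR-494-3p, and miR-3072-3p were detected on 0 of 8 arrays.

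Of 113 other miRNAs listed for the locus on the array, 97 were detected on no array. The remaining 16, all of them detected on at least 1 normal array, were 14.2% of the list, beside 16.9% of all 1881 miRNAs detected on at least 1 array. Only miR-127-3p, miR-134-5p and miR-3070-2-3p were detected on any NcstnΔKC array, and 0 of the 113 were detected consistently enough to be tested beside the 3 described. The number detected was 4, 14, 1 and 2 on normal arrays 1 to 4. It was 2, 0, 1 and 2 on NcstnΔKC arrays 1 to 4. The means were 5.25 ± 5.97 and 1.25 ± 0.957 (SD, n = 4), a difference of -4.0 that did not pass an exact two-sided permutation test (p = 0.257, where the smallest possible is 0.0286). Without normal 2 the difference was -1.08.

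Normal 2 held most of the detections of other locus miRNAs. Of the 16 miRNAs that were detected on this array and no other, 11 were of the locus, among them miR-136-5p and miR-434-3p, which lie antisense to Rtl1, and miR-379-5p and miR-411-5p, at the start of the distal miRNA cluster. On every other array, 0 of the miRNAs detected there alone were of the locus. Since the 11 of normal 2 entered through that array, their higher values there follow from how they were counted. miR-3072-5p and miR-1906 were also highest on normal 2. For miR-494-3p normal 2 was the lowest normal array, although its hairpin lies in the same cluster as those of miR-379-5p and miR-411-5p. How normal 2 came to differ was not tested.

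**Figure D3:**
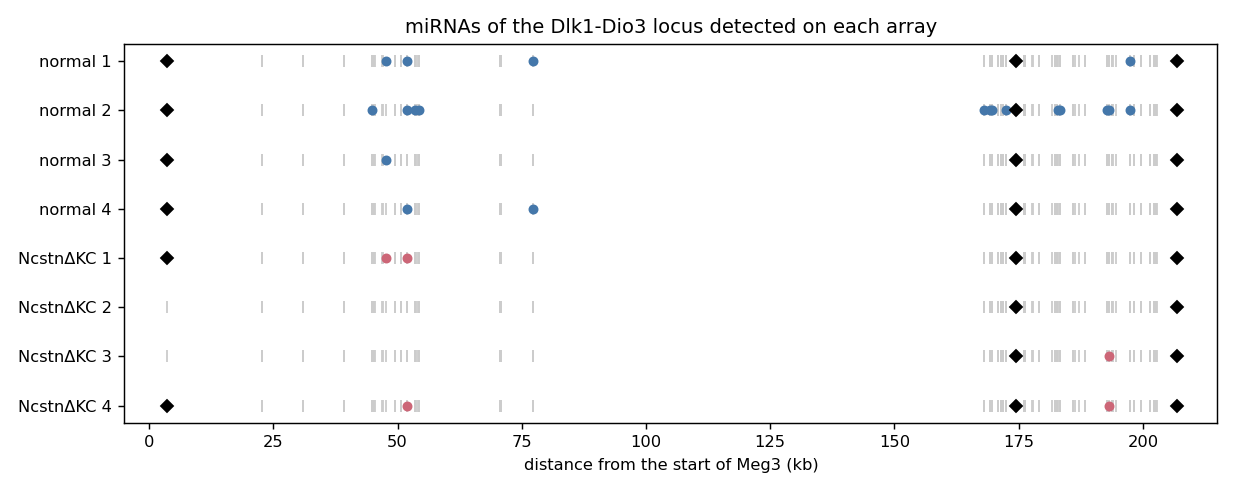
Locus miRNAs detected on each array by distance of the mature miRNA from the start of Meg3 (kb, GRCm38.p6); black diamonds mark miR-1906 (at its copy in Meg3), miR-494-3p and miR-3072-5p where detected, coloured dots the other detected miRNAs and grey ticks undetected ones. Most dots lie on normal 2; both arms of miR-1247, detected on no array, lie beyond the axis, and 5 miRNAs without a RefSeq match, 1 of them detected on normal 2, are not drawn.

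Among the 113, miR-127-3p, an miRNA antisense to Rtl1, was detected most often, on 5 arrays. Its log2 signal was -3.76, -1.45, -4.97 (the floor) and -4.37 on normal arrays 1 to 4. It was -3.85, -4.72, -4.72 and -4.21 on NcstnΔKC arrays 1 to 4. The groups overlapped, and the difference of -0.74 ± 0.79 (SE) was smaller than its error. In the fit over all 1881 miRNAs, 1 of the 113 was called lower and 0 higher, beside 0.585% and 0.425% of all miRNAs. Most of the 113, like most of the 1881, were detected on no array, which keeps such counts low. That one was miR-370-3p, chosen for mention after its value was seen. It was detected on 2 normal arrays and 0 NcstnΔKC arrays, and all 4 of its NcstnΔKC values lay at the floor, which removes their spread and lowers p.

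The 3 miRNAs did not follow one pattern over the arrays. Likeness was measured as the root mean square difference of mean-centred log2 values over the 8 arrays, in which 0 means the same pattern. From miR-494-3p, miR-1906 lay at 0.88 and miR-3072-5p at 0.91, ranks 68 and 79 among the tested miRNAs, whose median was 1.03. The nearest to miR-494-3p were miR-1897-3p (0.27), miR-6944-5p (0.30) and miR-466h-3p (0.35), none of them of the locus. These 3 were detected on all 4 normal arrays but on 0, 0 and 1 NcstnΔKC arrays.

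miR-3072-5p and miR-1906 lay closer to each other, at 0.29. That made miR-1906 the 9th nearest to miR-3072-5p, while miR-3072-5p ranked 45 from miR-1906. The nearest to miR-3072-5p were miR-152-3p (0.18), miR-5107-5p (0.18) and miR-148a-3p (0.22), against a median of 0.56 over tested miRNAs. The nearest to miR-1906 were miR-6898-5p (0.083), miR-130a-3p (0.15) and miR-101a-3p (0.16), against a median of 0.47. Since all are read on the same 8 arrays, a shared group difference and shared array effects enter these distances.

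The 2 GC-rich miRNAs were set beside others of like composition. Only 187 of the 222 tested miRNAs had a mature sequence at hand and entered a GC class. Among 29 tested miRNAs with a GC content over 65%, the class of miR-3072-5p and miR-1906, the median difference was -0.44, which was the value of miR-1906 itself. In that class 7 were called lower, a share of 24.1% beside 27.9% of all tested miRNAs. Among 87 with a GC content under 50%, the class of miR-494-3p, the median difference was -0.17 and 25.3% were called lower, so miR-494-3p stood far below its class. The part of composition in these differences was not tested.

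Whole skin holds several cell types, so fewer cells of a type and less RNA per cell cannot be told apart. Of 7 striated muscle miRNAs, 4 were detected on all 8 arrays and 3 (miR-499-5p, miR-208a-3p and miR-208b-3p) on none. The summed linear signal of this list was 17.5, 50.6, 84.1 and 67.9 on normal arrays 1 to 4. It was 38.3, 6.41, 12.9 and 13.1 on NcstnΔKC arrays 1 to 4, so the groups overlapped, with NcstnΔKC 1 above normal 1. Within the groups the linear signal of miR-494-3p was high on the same arrays as this sum: on normal 3 and 4 (14.2 and 17.9, beside 9.23 and 7.88 on normal 1 and 2) and on NcstnΔKC 1 (3.69, beside 2.47, 2.81 and 2.54 on NcstnΔKC 2 to 4). The order within normal skin still differed, since normal 2 exceeded normal 1 and normal 3 exceeded normal 4 in the muscle sum but not in miR-494-3p. Between the groups, NcstnΔKC 1 lay above normal 1 in the muscle sum and below it in miR-494-3p. miR-1906 was likewise highest among NcstnΔKC arrays on NcstnΔKC 1, at 0.0976, and miR-3072-5p was lowest there, at 0.101.

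**Figure D4:**
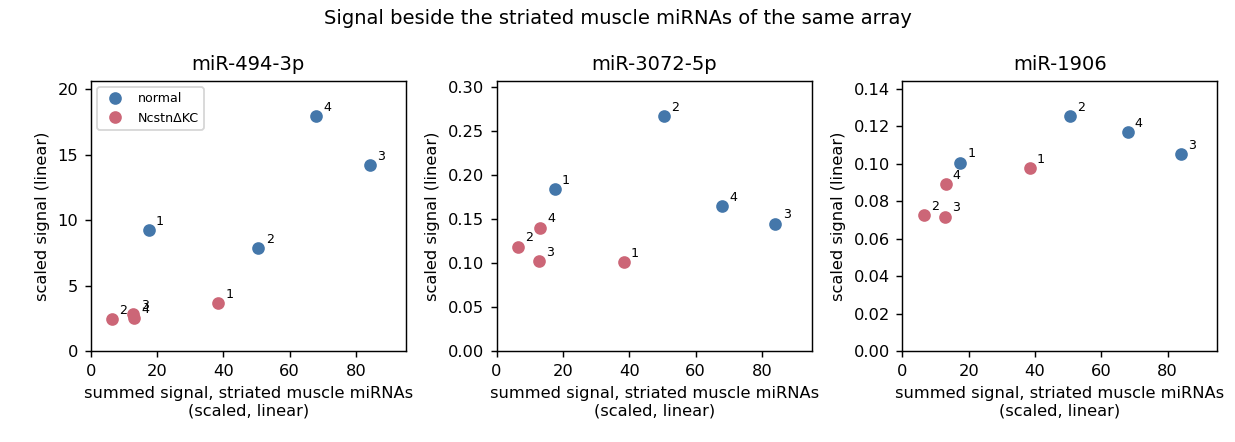
Linear scaled signal of each miRNA against the summed linear scaled signal of the striated muscle miRNAs on the same array; points are arrays, numbered by replicate. For miR-494-3p, normal 3 and 4 and, among NcstnΔKC arrays, NcstnΔKC 1 are high on both axes, while NcstnΔKC 1 exceeds normal 1 in muscle signal (38.3 against 17.5) and lies below it in miR-494-3p (3.69 against 9.23).

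Of the other marker lists, 2 had sums that did not overlap between the groups. The white blood cell sum ran from 1.67 to 2.31 in normal and from 2.64 to 8.33 in NcstnΔKC skin, with 2 of 4 tested members called higher. The fibroblast and smooth muscle sum ran from 4.76 to 6.41 and from 7.44 to 11.3. Of its 4 tested members, miR-199a-3p (0.69) and miR-214-3p (1.21) were called higher and miR-145a-5p (-1.14) was called lower. The last, miR-143-3p (-0.52), was not called, so the rise of the sum does not hold for every member. The keratinocyte sum overlapped, from 22.5 to 27.4 and from 22.7 to 30.3, with 4 of 7 called lower. The red blood cell sum overlapped as well (0.688 to 1.84 and 1.05 to 2.83), and 1 of its 2 tested members was called lower. Of 4 neural miRNAs, 3 (miR-9-5p, miR-124-3p and miR-138-5p) were detected on no array, and the sum overlapped (0.103 to 0.157 and 0.0669 to 0.18). This low sum rests on miR-338-3p and on miRNAs not detected. Within each group it ranked the arrays in the same order as miR-494-3p, a match chosen for mention after it was seen. It was 0.136, 0.103, 0.141 and 0.157 on normal arrays 1 to 4. On NcstnΔKC arrays 1 to 4 it was 0.18, 0.0669, 0.159 and 0.12. Between the groups the order was not the same, since the sum was highest of all arrays on NcstnΔKC 1, where miR-494-3p lay below every normal array. Over all tested miRNAs 27.9% were called lower and 14.9% higher, and with so few members a list the counts are not read against these shares. The part of these cell types in the differences of miR-494-3p, miR-3072-5p and miR-1906 was not tested.

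The choice of scaling moved the 3 miRNAs to different degrees. Over 6 scalings and background corrections (the reported one included, the percentile over all probes left aside) the miR-494-3p difference was -2.34 to -1.79. Under the same 6, miR-3072-5p differed by -1.0 to -0.24 and miR-1906 by -0.75 to -0.054. With the percentile over all probes, which lies at only 0.826 to 6.54 intensity units, miR-494-3p was still lower by -1.17 while miR-3072-5p (0.18) and miR-1906 (0.43) turned positive, and the median tested miRNA moved to 0.64. With the scanner software's own totals miR-1906 also turned positive (0.45).

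**Figure D5:**
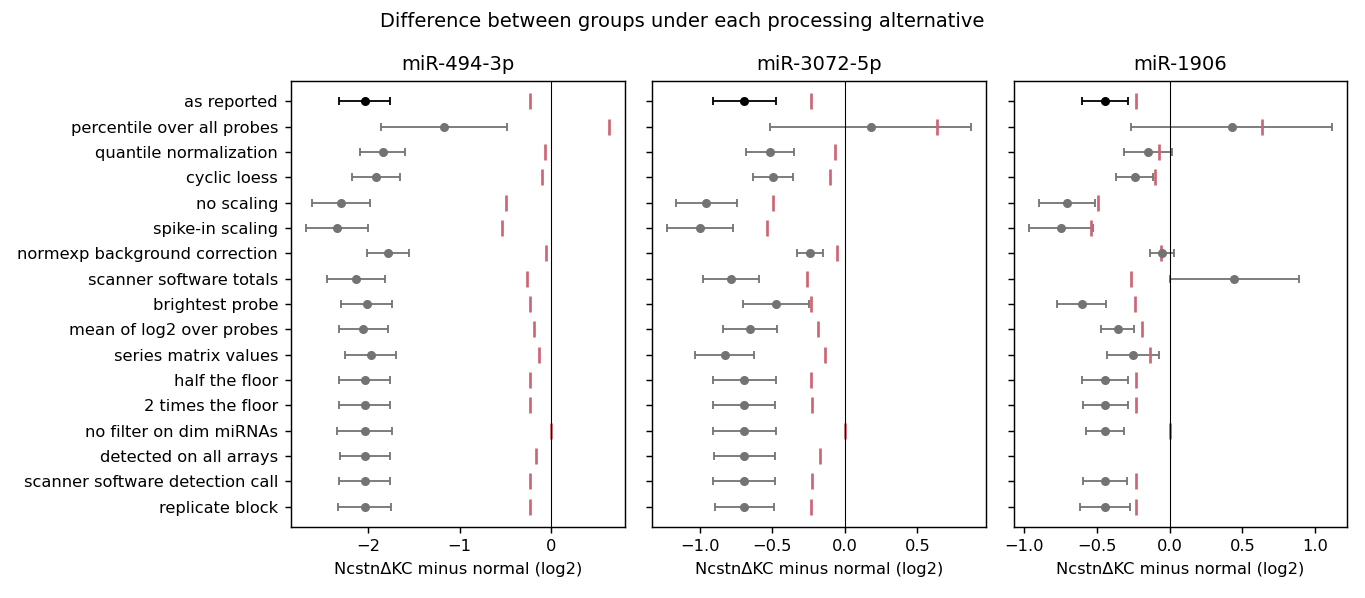
Difference between NcstnΔKC and normal skin (log2, point with SE) of each miRNA as reported (black) and under each processing alternative (grey); the red tick is the median of all miRNAs in that fit. miR-494-3p stays below 0 and below the median in every one, while miR-3072-5p and miR-1906 cross 0 with the percentile over all probes (0.18 and 0.43), and miR-1906 also with the software totals (0.45).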

How the data were processed

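Total RNA of 8 mouse skin samples was hybridised to 1-colour Agilent miRNA arrays, per the labels. Per the file headers, Feature Extraction 10.7.1.1 gave for each spot a processed intensity with the background subtracted and no normalization between arrays. The deposited series matrix holds log2 values, whose normalization and centring are not given in the sources used here. They served as an alternative, with array medians of 3.24 to 3.25. Control spots and outlier spots (2223 to 2940 per array) were left out, and 0 spots were saturated. Spots were averaged per probe, scaled, summed per miRNA, set to a floor of 0.0318 (log2 -4.97; single probes 0.0411) and log-transformed.

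The 222 miRNAs detected on all 4 arrays of a group were fitted in R 4.3.3 by limma 3.58.1 (group as the only term, lmFit, then eBayes), with Benjamini-Hochberg adjustment and a threshold of 0.05. The number of arrays limits the precision. Counts per array were compared by exact permutation over 70 labelings with Python 3.11.15. The fit was tested on simulated data. Alternatives were other scalings, background corrections, probe summaries, floors and filters, a replicate block, and leaving out each array in turn. The miRNAs, lists, alternatives and rule for named miRNAs were chosen with earlier results of these data known. The rule took the 3 miRNAs, their other arms, locus miRNAs detected on at least 4 arrays and the 3 nearest tested miRNAs of each. The locus list had 116 miRNAs, of which 111 matched a RefSeq mature miRNA on chromosome 12.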

Additional observations from a re-analysis of the deposited data

Results flagged for a closer look

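The 13-base probe of miR-3072-5p stood out on NcstnΔKC 4. Its processed intensity there, before scaling, was 104.7, while the other NcstnΔKC arrays lay between 76.0 and 79.2. The gap to the nearest of them was 0.891 of the group's range, above the limit of Dixon's test for 4 samples. The signals used for scaling were 1160, 922, 1061 and 1070 on NcstnΔKC arrays 1 to 4, so the gap is a smaller part of the range after scaling. Of 20 groups of values checked, 1 passed that limit, and chance alone passes about 1 in 20. After scaling and summing over probes, the same array had the highest NcstnΔKC value of miR-3072-5p (-2.83, with NcstnΔKC 2 next at -3.07), close to the lowest normal one.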

How the results depend on the processing

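The calls counted here show dependence on the processing and are no test of the 3 chosen miRNAs. miR-494-3p kept its direction and call in 15 of 16 alternatives and lost the call only where the percentile was over all probes (-1.17). miR-3072-5p kept its call in 11 of 16: it reversed with that percentile (0.18) and lost the call with normexp (-0.24), the brightest probe (-0.48) and no filter on dim miRNAs (-0.69). miR-1906 kept its call in 6 of 15: it reversed with that percentile (0.43) and the software totals (0.45), and lost the call with quantile normalization (-0.15), cyclic loess (-0.24), normexp (-0.054), the series matrix (-0.25), 2 times the floor (-0.44) and no filter (-0.44). It could not be tested among miRNAs detected on all arrays. The causes were not tested. Leaving out 1 array gave -2.23 to -1.83 for miR-494-3p, -0.81 to -0.52 for miR-3072-5p and -0.53 to -0.38 for miR-1906.

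The 62 calls of lower miRNAs became 32 with quantile normalization, 29 with cyclic loess, 101 without scaling, 28 with normexp, 41 with software totals, 36 with the series matrix, 11 with no filter, 34 for miRNAs detected on all arrays, and 35 to 65 with 1 array left out (35 without NcstnΔKC 3). With the percentile over all probes limma called 0 lower, with 0 at an unadjusted p of 0.05. Lower calls were 65.3% of all calls as reported, 47.1% with quantile normalization, 43.3% with cyclic loess, 80.8% without scaling, 83.5% with spike-in scaling, 42.4% with normexp and 50% with the series matrix. The median tested miRNA moved between -0.54 and -0.056 under the other scalings.

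Same-numbered arrays of the groups did not deviate together (correlations -0.44, 0.20, -0.26 and -0.23). These values gave no sign of a pairing by number but cannot exclude one. With the replicate number as a block, the calls of miR-3072-5p (-0.69) and miR-1906 (-0.44) were lost and 43 lower calls were made.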

Other observations

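miR-134-5p of the same locus, chosen for mention after its values were seen, lay at -0.78 on NcstnΔKC 3 and -0.20 on NcstnΔKC 4. It lay at -3.30 and -2.94 on NcstnΔKC 1 and 2, and at -4.22, -2.73, -4.97 (the floor) and -4.02 on normal arrays 1 to 4. It was detected on 3 arrays (normal 2, NcstnΔKC 3 and NcstnΔKC 4) and so was not tested. The white blood cell sum was also highest on NcstnΔKC 3 and 4, at a linear signal of 6.56 and 8.33, and no relation between them was tested.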
